A study of Mus musculus with 24 samples.

Results

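Adult mouse microglia were compared with bone marrow macrophages, using the 3 arrays labelled ad-MG and the 3 labelled bm-Mac, which are 6 of the 24 arrays of the series. All 18820 genes that a probeset names alone entered the comparison, each through its brightest probeset. The ad-MG samples came from adult C57BL/6NCr mice heterozygous for Cx3cr1 gfp/+, an allele in which the coding sequence of a green fluorescent protein takes the place of part of Cx3cr1. The bm-Mac samples came from adult C57BL/6NCr mice without that allele, so the allele and the cell type cannot be told apart. Both cell types were kept in DMEM/F12 with serum, Glutamax and antibiotics, and the labels name no cytokine for either. The labels do not give the isolation steps, the time in culture or the number of animals. The other arrays of the series, 3 for each of 6 more cell types, set the spread of the fit, and 3 of these groups are quoted beside the results: microglia labelled neo-MG, peritoneal macrophages labelled p-Mac and dendritic cells labelled DC.

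Microglia are the resident macrophages of the brain tissue. They derive from yolk sac precursors and renew themselves there, and they carry purinergic and chemokine receptors with which they sense neurons. Bone marrow macrophages arise in culture from haematopoietic precursors that also yield monocytes, granulocytes, mast cells and platelet-forming megakaryocytes. Both cell types depend on signalling through the receptor CSF1R and share a core of phagocytic genes, so a comparison between them asks what adult brain macrophages hold apart from this core.

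Total RNA was measured on a whole-transcript Affymetrix mouse gene array, and the deposited values are on a log2 scale between 3.14 and 14.43. The spread between arrays was small: the median standard deviation over genes was 0.09 in ad-MG and 0.07 in bm-Mac (n = 3 each). Any 2 ad-MG arrays differed by a root mean square of 0.15 to 0.18 over all genes and any 2 bm-Mac arrays by 0.12 to 0.15, whereas an ad-MG and a bm-Mac array differed by 0.71 to 0.73. Whether the 3 arrays of a group stand for 3 animals or 3 cultures is not given in the labels, so p-values measure only the spread between arrays. That spread is the one within groups, pooled over all 24 arrays of the fit and not taken from ad-MG and bm-Mac alone. For a gene that varies more in ad-MG or bm-Mac than in the other groups, the p-value and standard error understate its spread there. A fold change on such an array is compressed at low signal, and no value in the table marks a gene as undetected.

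The largest difference in favour of adult microglia was in Ch25h, an enzyme gene of oxysterol synthesis, followed by the matrix gene Ogn, and the largest in favour of bone marrow macrophages were in Ngp, a granulocyte gene, and Cpa3, a mast cell gene. Which cell type held more of the higher genes depended on the 2-fold minimum. A gene was called when its Benjamini-Hochberg adjusted p from limma was under 0.05 and its difference was at least 2-fold. By this rule 1685 of 18820 genes, or 8.95%, were called, 1012 (5.38%) higher in ad-MG and 673 (3.58%) higher in bm-Mac. With the adjusted p alone the number was 10794, or 57.4% of genes, and the split turned, with 4323 higher in ad-MG and 6471 higher in bm-Mac. The 3 ad-MG arrays did not overlap the 3 bm-Mac arrays for 63.0% of all genes and for each of the 1685 called genes. The median difference of all genes was -0.09 (log2, ad-MG minus bm-Mac, as throughout), and 38 genes were at least 16-fold higher in ad-MG against 28 in bm-Mac.

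**Figure D1:**
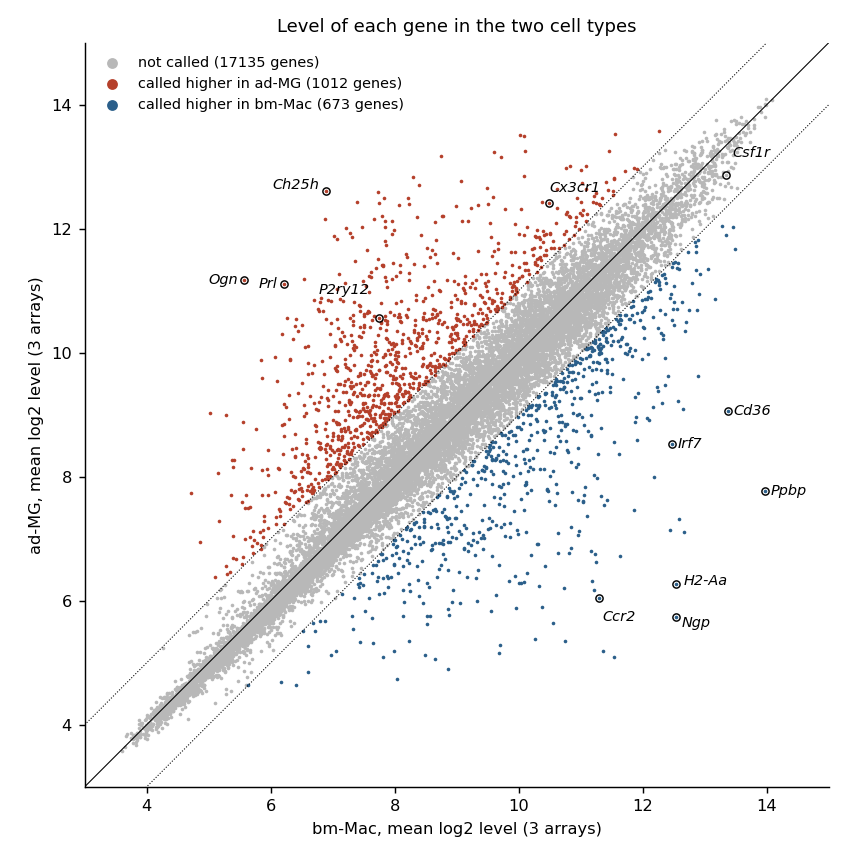
Mean log2 level of each of 18820 genes in ad-MG (vertical axis) against bm-Mac (horizontal axis), 3 arrays each; the solid line marks equality and the dotted lines a 2-fold difference. The 1012 genes called higher in ad-MG are red and the 673 called higher in bm-Mac are blue; Ch25h and Ogn lie far above the line, Ngp, H2-Aa and Ppbp far below it, and Csf1r close to it.

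Genes of the shared macrophage core had high signal in both cell types. Of 38 measured genes of the pan-myeloid list, 34 did not pass, 1 was higher in ad-MG and 3 were higher in bm-Mac. Over all genes 8.95% were called, so these counts do not set the list apart. The median difference was -0.29. Csf1r, the receptor both cell types need to survive, lay at 12.95, 12.77 and 12.88 in ad-MG and at 13.37, 13.39 and 13.29 in bm-Mac. These arrays did not overlap, but the difference of -0.48 ± 0.08 (SE) was under 2-fold (adjusted p = 1.2e-05). Spi1, which encodes the lineage factor PU.1, differed by -0.17 (adjusted p = 0.205), and Adgre1, which encodes the macrophage surface protein F4/80, by -0.20 (adjusted p = 0.148). Itgam and Ptprc, which encode CD11b and CD45, differed by -0.35 and -0.55, and Aif1, the gene of the microglial stain IBA1, by -0.33. The single member called higher in ad-MG was Cd33, an inhibitory sialic acid receptor, at 12.64 to 12.78 against 10.90 to 11.11 (log2 difference 1.71 ± 0.08 SE, adjusted p = 2.13e-15). The members called higher in bm-Mac were the lectin receptors Clec4a1 (-2.05) and Clec4a3 (-1.18) and the high-affinity Fc receptor Fcgr1 (-1.18). The pan-myeloid list averaged 12.19 to 12.31 over the ad-MG arrays and 12.51 to 12.57 over the bm-Mac arrays.

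Genes enriched in microglia were higher in the ad-MG arrays. Of 36 measured members, 18 were called higher in ad-MG and none in bm-Mac, against 5.38% and 3.58% of all genes, and the median difference was 1.02. P2ry12, the ADP receptor that steers microglial processes, lay at 10.69, 10.34 and 10.64 in ad-MG and at 7.91, 7.71 and 7.64 in bm-Mac. All 3 ad-MG arrays were above all 3 bm-Mac arrays, and the difference of 2.81 ± 0.13 (SE) corresponds to 6.99-fold (adjusted p = 4.82e-16). Tmem119, a membrane protein used to tell microglia from other macrophages, was at 10.07, 9.87 and 10.27 against 7.87 to 8.02, a difference of 2.10 ± 0.09 (4.3-fold, adjusted p = 5.34e-17). Cx3cr1, the fractalkine receptor, was at 12.31 to 12.53 against 10.47 to 10.53 (1.91 ± 0.07, adjusted p = 2.31e-18), although the ad-MG mice carried the gfp allele at this locus. Sall1, a transcription factor that maintains microglial identity, showed the smallest difference of these 4, at 9.08 to 9.29 against 7.68 to 8.18 (1.20 ± 0.12, adjusted p = 1.78e-09). 

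The largest differences in the same list belonged to Sparc, a matrix protein that astrocytes and fibroblasts also make, and Olfml3, a secreted olfactomedin protein. Sparc was at 13.19, 13.17 and 13.13 in ad-MG and at 8.81, 8.73 and 8.71 in bm-Mac, a difference of 4.42 ± 0.10 (adjusted p = 4.5e-22). Olfml3 differed by 3.69 ± 0.07, Fcrls, an Fc receptor-like scavenger protein, by 3.41 ± 0.08, and the purinergic receptor P2ry13 by 2.93 ± 0.11. Gpr34, a lysophospholipid receptor, varied most among the ad-MG arrays, at 10.48, 9.58 and 10.05, and still exceeded the bm-Mac arrays at 7.32 to 7.37. At the other end Siglech and Slco2b1 lay below bm-Mac by less than 2-fold (-0.43 and -0.53), and Siglech was at 7.81 to 7.86 in ad-MG, 7.68 on average in neo-MG and 8.18 to 8.37 in bm-Mac. Over the whole list the mean level was 10.94 to 11.06 in ad-MG, 10.56 to 10.58 in neo-MG, 9.88 to 9.92 in p-Mac and 9.77 to 9.83 in bm-Mac. Of its 36 members, 18 also belong to another of the lists used here.

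The 12 protein-coding genes with the largest difference in favour of ad-MG were led by Ch25h, which encodes cholesterol 25-hydroxylase, an enzyme that makes the oxysterol 25-hydroxycholesterol. Ch25h was at 12.64, 12.55 and 12.64 in ad-MG and at 6.90, 6.77 and 6.99 in bm-Mac. The groups lay 5.72 ± 0.09 (SE) apart, or 52.9-fold (adjusted p = 3.59e-25). The dendritic cell arrays of the series, at a mean of 12.83, were as high as ad-MG for this gene, whereas neo-MG were at 8.93 and p-Mac at 6.89. Most of the others encode matrix proteins or proteins that act on matrix. They were Ogn (5.60), Ccdc80 (5.27), Col12a1 (4.86), Postn (4.81), Efemp1 (4.76), Mgp (4.68) and Plod2 (4.66), which encode osteoglycin, a matrix-binding protein, a collagen, periostin, a fibulin, matrix Gla protein and a lysyl hydroxylase of collagen. Ogn was at 11.27, 11.20 and 11.05 against 5.62, 5.52 and 5.59, so its highest bm-Mac array was more than 5 log2 units below its lowest ad-MG array. The remaining members were Npr3 (5.03), the clearance receptor of natriuretic peptides, Ddah1 (4.86), which degrades the nitric oxide synthase inhibitor dimethylarginine, Igf2 (4.68), a fetal growth factor, and Prl (4.90), the pituitary hormone prolactin. Prl was at 10.74, 11.28 and 11.31 in ad-MG and at 6.15 to 6.25 in bm-Mac, with means of 6.06 in neo-MG and 6.44 in p-Mac.

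The 12 genes with the largest difference in favour of bm-Mac were led by Ngp, a granule protein of neutrophil precursors. Ngp was at 5.79, 5.75 and 5.66 in ad-MG and at 12.54, 12.44 and 12.62 in bm-Mac, a difference of -6.80 ± 0.09 (SE), or 111-fold (adjusted p = 1.55e-26). Neutrophil and monocyte genes in this set were also Chil3 (-6.17), a chitinase-like lectin, Mmp9 (-5.55), a gelatinase stored in granules, and Ccr2 (-5.26), the chemokine receptor that releases monocytes from the marrow. Mast cell and basophil genes were Cpa3 (-6.45), a carboxypeptidase, Ms4a2 (-5.41), the beta chain of the IgE receptor, and Mcpt8 (-4.92), a basophil protease. Ppbp (-6.19), a platelet chemokine, reached 13.97, 13.93 and 13.99 in bm-Mac against 7.84, 7.64 and 7.84 in ad-MG, and Rgs18 (-5.27) encodes a regulator of G protein signalling in platelets and myeloid cells. H2-Aa (-6.26) encodes a class II chain, Tnip3 (-5.30) an inhibitor of NF-kB signalling and Atp8b4 (-5.05) a phospholipid flippase. Rgs18 and H2-Aa were nearly as high in p-Mac (means of 12.22 and 12.31) as in bm-Mac (12.58 and 12.54), while Ngp, Chil3, Ms4a2 and Mcpt8 were below 7.5 there.

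**Figure D2:**
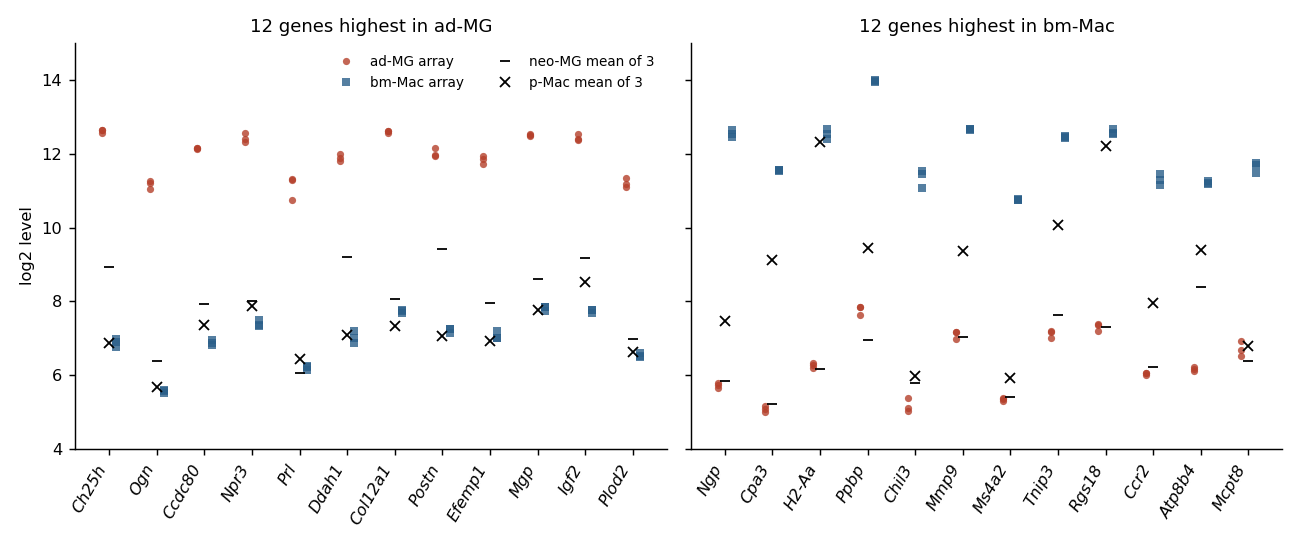
Log2 level (vertical axis) in each of the 3 ad-MG arrays (red circles) and 3 bm-Mac arrays (blue squares) for the 12 genes highest in ad-MG (left) and the 12 highest in bm-Mac (right), with the neo-MG and p-Mac means as a bar and a cross. Only called genes whose groups do not overlap could enter, so the lack of overlap follows from the choice. On the left neo-MG and p-Mac lie closer to bm-Mac than to ad-MG, and on the right neo-MG lies closer to ad-MG than to bm-Mac.

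Markers of connective tissue and vessel wall cells moved with the ad-MG label. Of 39 measured genes of the fibroblast and meninges list, 31 were called higher in ad-MG and none in bm-Mac. Over all genes these shares were 5.38% and 3.58%, and the list median was 2.73. The list averaged 10.30 to 10.42 over the ad-MG arrays and 7.71 to 7.73 over the bm-Mac arrays, and it was at 8.01 to 8.06 in neo-MG and 7.76 to 7.89 in p-Mac. Col1a1, a chain of type I collagen, was at 12.38, 12.45 and 12.32 in ad-MG against 9.24, 9.38 and 9.41. Of the defining transcription factors and receptors, Foxd1 (3.35), Prrx1 (3.32), Foxc1 (2.72), Twist1 (1.24) and Pdgfra (1.38) were called higher, whereas Dpt, Fap and Col5a1 were at 5.5, 6.3 and 8.5 in ad-MG with differences of 0.01, -0.06 and -0.25. The 2 probesets of Col5a1 disagreed in sign, the other giving 0.50. Of 18 measured mural cell genes, 10 were called higher in ad-MG and none in bm-Mac (median 1.36), among them the smooth muscle genes Tagln (4.19) and Acta2 (3.63) and the pericyte receptor Pdgfrb (3.23), while Kcnj8, Abcc9 and Higd1b, further pericyte markers, were within 0.1 of bm-Mac. The mural list averaged 9.46 to 9.59 in ad-MG and 7.90 to 7.91 in bm-Mac. In bulk samples a larger share of a cell type and more RNA per cell cannot be told apart, and how far these markers contribute to the differences in matrix genes, or in any other gene, was not tested.

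Most markers of other brain and pituitary cells did not pass. Over all genes 5.38% were called higher in ad-MG and 3.58% in bm-Mac. Of 16 measured neuronal genes, only Stmn2 was called higher (3.07), and Syn1, a synaptic vesicle protein, was higher in bm-Mac (-2.20). Of 18 measured oligodendrocyte genes, Cldn11 was called higher in ad-MG (1.24) and Cnp in bm-Mac (-1.29), and the myelin genes Mog, Mobp and Mag did not pass. Of 18 measured astrocyte genes, Slc4a4 (3.66), Gja1 (2.27) and Atp1b2 (1.86) were called higher, whereas the defining markers Gfap (0.48), Aqp4 (0.76) and Aldh1l1 (-0.93) did not pass. Yet 14 of the 18 astrocyte genes had a positive difference, with a median of 0.39. The astrocyte list averaged 8.23 to 8.28 in ad-MG and 7.64 to 7.65 in bm-Mac. In the endothelial list, Cdh5 (3.03) and Emcn (3.02) were called higher in ad-MG and Vwf (-1.98) and Pecam1 (-1.22) in bm-Mac, and Cldn5, Kdr and Tie1 did not pass. Of 16 measured choroid plexus genes, the transthyretin gene Ttr (1.39) and the water channel gene Aqp1 (1.34) were called. Of 21 measured pituitary genes, Prl alone was called, and the pituitary hormone genes Gh, Pomc, Cga, Tshb, Lhb and Fshb differed by -0.23 to -0.09.

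Blood cell lineages other than macrophages moved with the bm-Mac label. Over all genes 3.58% were called higher in bm-Mac and 5.38% in ad-MG. Of 24 measured granulocyte genes, 18 were called higher in bm-Mac and none in ad-MG, with a median of -2.68, and the list averaged 10.13 to 10.21 in bm-Mac against 7.31 to 7.42 in ad-MG, 7.33 to 7.40 in neo-MG and 8.13 to 8.18 in p-Mac. Mpo, the azurophil granule peroxidase, was at 11.87, 11.88 and 11.82 in bm-Mac and 7.39, 7.61 and 7.38 in ad-MG (-4.39 ± 0.08, adjusted p = 1.38e-24). Ltf, S100a8, S100a9, Retnlg, Cxcr2, Ctsg, Prtn3 and Elane, which are genes of neutrophils and their precursors, were lower in ad-MG by 2.53 to 4.86, and Camp and Fcnb by 1.16. Of 14 measured mast cell and basophil genes, 11 were called higher in bm-Mac and none in ad-MG (median -2.38). The mast cell proteases Tpsab1, Mcpt4 and Cma1 did not pass, and lay at 6.7, 5.8 and 6.6 in bm-Mac. The list averaged 9.11 to 9.23 in bm-Mac and 6.28 to 6.41 in ad-MG. Of 13 measured erythroid and platelet genes, 6 were called higher in bm-Mac, including the platelet genes Gp9 (-3.65) and Itga2b (-2.50), while the red cell genes Klf1, Alas2 and Slc4a1 differed by -0.24 to -0.06. Of 17 measured immunoglobulin segments and constant regions, 11 were called higher in bm-Mac and none in ad-MG, among them Igha (-3.10) and Igkc (-1.80), a group chosen after its values were seen, and of 15 measured B cell genes Cd79b (-1.06) was called higher in bm-Mac and Ebf1 (1.28) in ad-MG, while Pax5, Cd79a and Ms4a1 did not pass. The part of these lineages in the other genes called higher in bm-Mac was not tested.

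**Figure D3:**
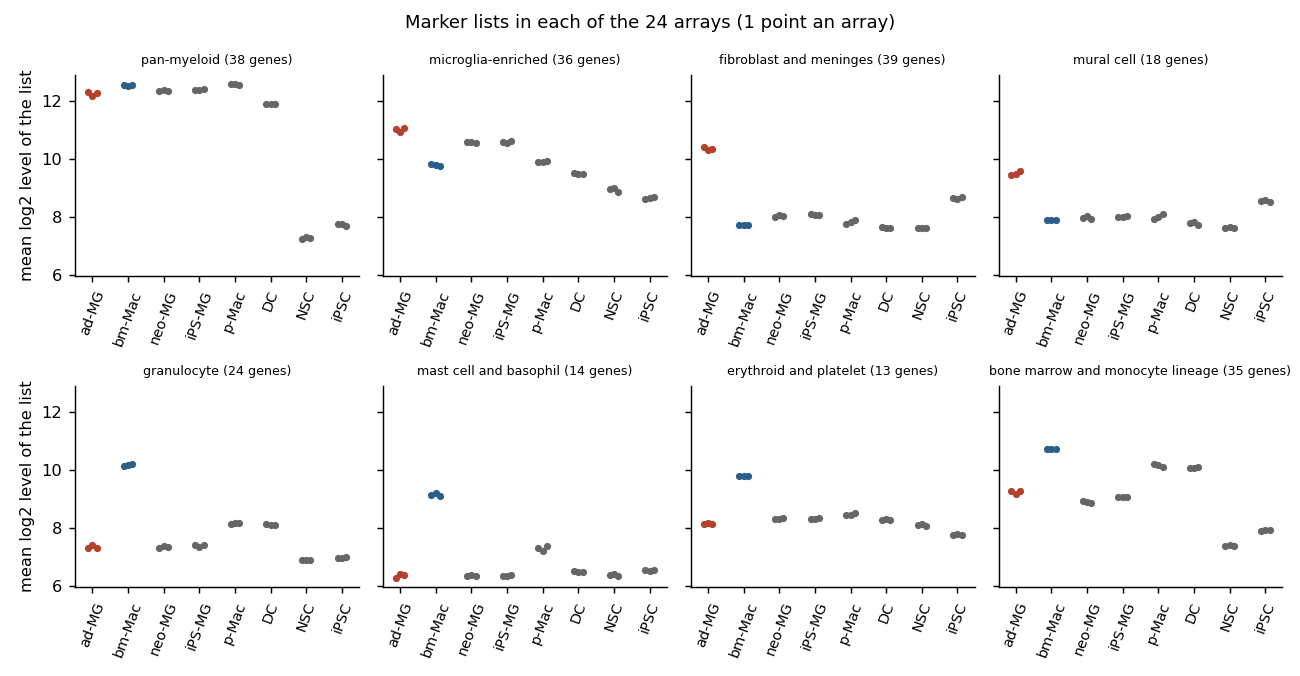
Mean log2 level (vertical axis) of 8 marker lists in each of the 24 arrays, with 1 point for each array, 8 cell types on the horizontal axis, ad-MG in red and bm-Mac in blue. The fibroblast and mural lists stand highest in ad-MG, the granulocyte, mast cell and platelet lists stand highest in bm-Mac, and the pan-myeloid list lies within 11.89 to 12.60 in all 6 macrophage, microglia and dendritic cell groups.

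Monocyte genes separated the cell types as well, but not all in the same direction. Of 35 measured genes of the bone marrow and monocyte list, 18 were called higher in bm-Mac and 2 in ad-MG. Over all genes these shares were 3.58% and 5.38%, and the list median was -1.15. Ccr2 was at 6.00, 6.06 and 6.06 in ad-MG and at 11.29, 11.16 and 11.45 in bm-Mac, and its means were 6.23 in neo-MG and 7.97 in p-Mac. Ifitm6 (-3.74), Napsa (-2.89) and Plac8 (-2.85), genes of circulating monocytes, were lower in ad-MG. Fn1, which encodes fibronectin and is often read as a sign of marrow-derived macrophages, was higher in ad-MG, at 13.56, 13.50 and 13.50 against 11.55, 11.51 and 11.61 (1.96 ± 0.05, adjusted p = 8.17e-21). It was also at 13.76 in p-Mac and at 10.79 in neo-MG. The fibroblast and meninges list was high in the same ad-MG arrays, and a link to Fn1 was not tested. S100a6, a calcium-binding protein, was the other member higher in ad-MG (1.32). Without ad-MG replicate 2 the members called higher in ad-MG were 4. The peritoneal list held Vsig4 (-3.32), Selp (-3.39) and the coagulation factor gene F5 (-3.77) on the bm-Mac side and Cxcl13 (2.97) and Tgfb2 (2.61) on the ad-MG side. Of 25 measured border-associated macrophage genes, 6 were called higher in bm-Mac, among them the iron exporter Slc40a1 (-2.21) and the lectin Clec10a (-3.66), and 2 in ad-MG, the collectin Colec12 (1.90) and the prostaglandin-degrading enzyme Hpgd (1.11). Mrc1, the mannose receptor, differed by -0.23 (adjusted p = 0.055).

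Most interferon-stimulated genes were lower in ad-MG. Type I interferons act through a receptor and transcription factors that bind an interferon-stimulated response element in the promoters of antiviral genes. Of 36 measured members, 28 were called higher in bm-Mac and none in ad-MG, against 3.58% and 5.38% of all genes, and the median difference was -1.76. The largest difference was in Irf7, the transcription factor that amplifies interferon production, at 8.69, 8.35 and 8.56 in ad-MG and 12.56, 12.52 and 12.33 in bm-Mac (-3.94 ± 0.09, 15.3-fold, adjusted p = 7.16e-22). Oas3, an enzyme that makes the RNase L activator 2-5A, was at 7.68, 7.57 and 7.58 against 10.97 to 11.14 (-3.42 ± 0.07, adjusted p = 6.71e-23). The groups did not overlap for either gene. The antiviral effectors Oasl1 (-3.19), Mx1 (-3.04), Oas2 (-2.99), Ifit2 (-2.97) and Rsad2 (-2.87) came next. Among the 8 members that did not pass, Bst2 and Isg20 had overlapping arrays (differences of 0.16 and 0.07), Irf8, a factor of macrophage identity, differed by -0.03, and Irf9, Irf1, Ifitm3, Isg15 and Ifi35 differed by -0.96 to -0.53.

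Which of the compared groups stood apart can be read from the other arrays. The interferon list averaged 9.53 to 9.69 in ad-MG, 9.58 to 9.68 in p-Mac, 9.14 to 9.20 in DC, 10.51 to 10.56 in neo-MG and 11.33 to 11.48 in bm-Mac, so bm-Mac were the highest of these groups and the ad-MG arrays overlapped the p-Mac arrays. For ad-MG against neo-MG, 14 of the 36 members were called lower in ad-MG and none higher, where 1.28% of all genes were lower and 4.43% higher (5.71% in all). For bm-Mac against p-Mac, 26 were called higher in bm-Mac and none lower, where 4.44% of all genes were higher and 1.73% lower (6.17% in all). Both of these share arrays with the main comparison.

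The promoters of the interferon genes were searched for a motif that many, but not all, of them hold. The windows reach from 250 bases before to 50 bases after the RefSeq start (GRCm38.p6). The motif searched was GAAA, any 2 bases and GAAA again, which is the core of the interferon-stimulated response element, on both strands and with overlapping matches kept. It was found in 14 of the 20 called members that have a window in the table and in 3 of the 8 that did not pass. Among all 14739 measured genes with a window the share was 3.91%, in the fibroblast and meninges list 2 of 24 and in the granulocyte list 0 of 21. A match is a description of the letters and not a bound site. The 250 bases before the start are shown, 5′ to 3′ on the gene's strand, for the 4 called members with 1 window and the largest differences among those holding the motif before the start, with the motif in capitals.

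Oas3, chr5:120777660-120777909, - strand: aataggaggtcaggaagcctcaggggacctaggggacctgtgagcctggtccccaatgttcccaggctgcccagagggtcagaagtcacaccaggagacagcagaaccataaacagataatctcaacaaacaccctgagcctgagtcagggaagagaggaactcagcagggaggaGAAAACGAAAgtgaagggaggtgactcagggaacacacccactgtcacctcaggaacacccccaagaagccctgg

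Rsad2, chr12:26456453-26456702, - strand: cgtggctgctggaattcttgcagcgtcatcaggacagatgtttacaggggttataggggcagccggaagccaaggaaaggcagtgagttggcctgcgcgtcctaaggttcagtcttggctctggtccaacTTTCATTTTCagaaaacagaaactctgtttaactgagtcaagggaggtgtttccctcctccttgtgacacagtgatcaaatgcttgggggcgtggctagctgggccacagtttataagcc

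Ifit3, chr19:34583279-34583528, + strand: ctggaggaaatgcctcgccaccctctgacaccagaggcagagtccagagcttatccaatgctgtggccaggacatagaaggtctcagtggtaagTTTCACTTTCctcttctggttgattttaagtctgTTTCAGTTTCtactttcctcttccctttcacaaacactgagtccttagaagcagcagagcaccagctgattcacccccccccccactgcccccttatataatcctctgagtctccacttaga

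Oas1a, chr5:120907526-120907775, - strand: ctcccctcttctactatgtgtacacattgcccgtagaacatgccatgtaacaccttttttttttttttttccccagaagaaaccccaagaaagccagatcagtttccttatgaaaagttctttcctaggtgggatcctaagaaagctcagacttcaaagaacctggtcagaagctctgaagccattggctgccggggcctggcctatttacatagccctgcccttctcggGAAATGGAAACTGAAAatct

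The motif begins 75 bases before the start in Oas3 and, on the opposite strand, 120 bases before it in Rsad2. Ifit3 holds 2 separate matches on the opposite strand, 156 and 122 bases before the start, and Oas1a holds 2 overlapping matches that begin 20 and 14 bases before it. These genes differed by -3.42, -2.87, -2.05 and -1.93. Irf7, with the largest difference of the list, had no match to these letters in its window.

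The chains of the class II molecules were lower in ad-MG, while most of the class II machinery did not pass. Class II molecules present extracellular peptides to CD4 T cells. Of 14 measured members, 4 were called higher in bm-Mac and 1 in ad-MG, against 3.58% and 5.38% of all genes. The median was -0.43. The 4 were the chains H2-Aa, H2-Ab1 and H2-Eb1 and the invariant chain Cd74. H2-Aa was at 6.20, 6.29 and 6.34 in ad-MG and at 12.67, 12.54 and 12.40 in bm-Mac, a 76.5-fold difference (adjusted p = 1.09e-25). Cd74 was at 8.97, 9.01 and 9.31 against 12.79, 12.62 and 12.56 (-3.56 ± 0.12, adjusted p = 8.35e-19). H2-Ab1 varied more among the ad-MG arrays, at 8.66, 8.97 and 9.21, but none came near the bm-Mac arrays at 11.96 to 12.18. For H2-Aa, the neo-MG mean of 6.18 was near ad-MG and the p-Mac mean of 12.31 near bm-Mac. Ciita, the class II transactivator, differed by -0.82 and did not pass, and the accessory chain H2-DMa differed by -0.24. H2-Ob, a chain of the inhibitor of peptide loading, was the member higher in ad-MG, at 9.76 to 9.82 against 8.48 to 8.62 (1.25 ± 0.13, adjusted p = 8.44e-09). None of the 18 measured class I genes was called; Tap1, a peptide transporter, came closest at -0.98 and passed with the arrays centred (-1.04). B2m, the light chain of class I, differed by -0.02. Nlrc5, the class I transactivator, has 19 probesets, which ranged from -1.85 to -0.43, and their mean passed at -1.17.

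**Figure D4:**
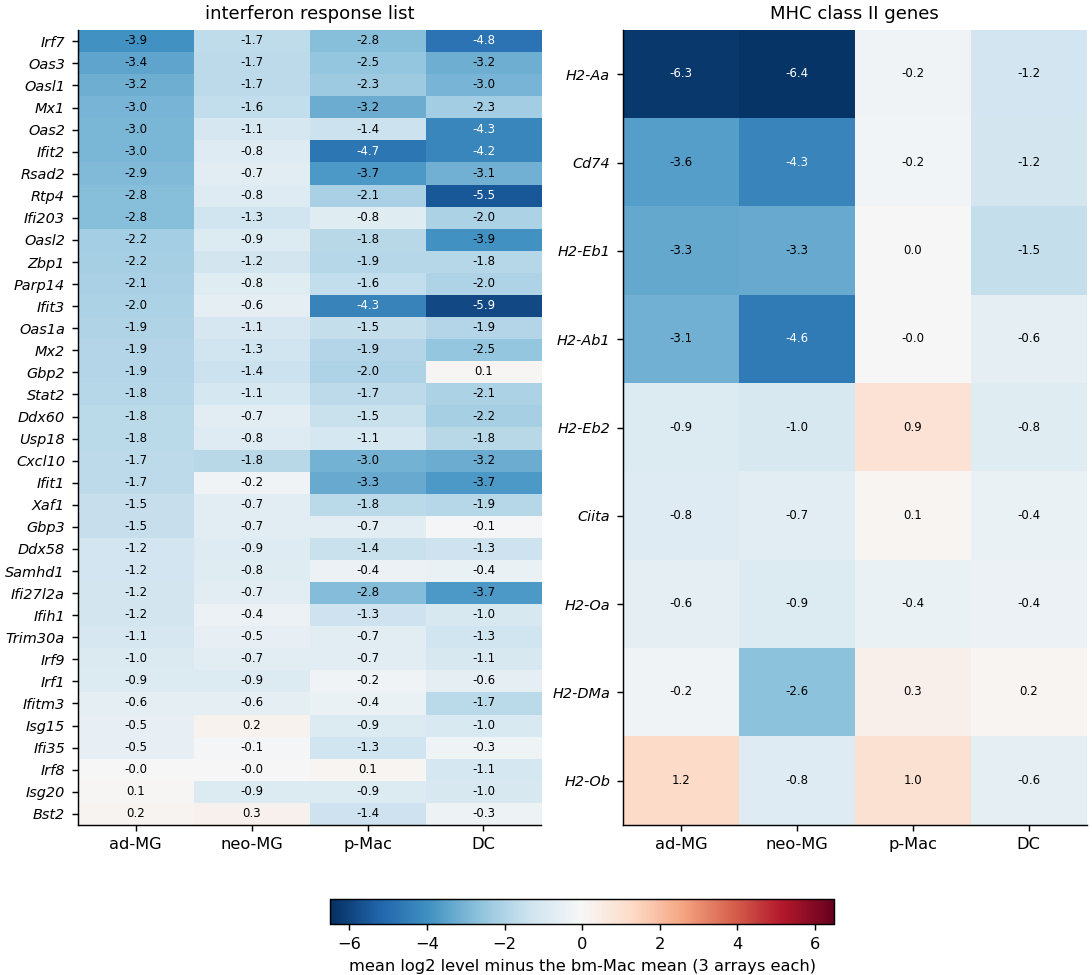
Mean log2 level of 36 interferon-stimulated genes (left) and of 9 class II genes (right) in ad-MG, neo-MG, p-Mac and DC (columns), each minus the bm-Mac mean, 3 arrays a group; blue is lower than bm-Mac and red higher. For the class II chains ad-MG and neo-MG are low while p-Mac is within 0.3 of bm-Mac; for most interferon genes all 4 groups are below bm-Mac.

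Among receptors for particles, pathogens and antibodies more genes were called higher in bm-Mac than in ad-MG. Of all genes 3.58% and 5.38% were called these ways. Of 27 measured pattern recognition receptors, 6 were called higher in bm-Mac and none in ad-MG (median -0.33): the scavenger receptor Cd36, the Toll-like receptors Tlr5 (-1.78), Tlr1 (-1.72), Tlr8 (-1.55) and Tlr4 (-1.30), and the adaptor Myd88 (-1.06). Cd36, which takes up oxidised lipoproteins and fatty acids, was at 9.17, 8.65 and 9.34 in ad-MG and at 13.37 in each of the 3 bm-Mac arrays (-4.31 ± 0.11, 19.9-fold, adjusted p = 5.13e-21). In this gene ad-MG was the group that stood apart, since the means of neo-MG, p-Mac and DC were 13.13, 13.37 and 13.25. Of 23 measured C-type lectin receptors, 11 were called higher in bm-Mac, led by Clec1b (-4.10), a podoplanin receptor of platelets and myeloid cells, and Clec10a (-3.66), which binds galactose residues. Mrc2 (2.71), a collagen uptake receptor, and Clec5a (1.08) were called higher in ad-MG, and Clec5a fell short of the minimum without bm-Mac replicate 1 (0.98). Of 15 measured Fc receptor genes, Fcgr4 (-1.84), Fcgr1 (-1.18) and the kinases Fgr (-1.71) and Syk (-1.17) were higher in bm-Mac and Fcrls in ad-MG, while the inhibitory receptor Fcgr2b differed by 0.91 and did not pass. Among 20 measured Siglec and related inhibitory receptors, 6 were called higher in bm-Mac, including Clec12a (-1.94) and Pilrb1 (-1.52), and Cd33 in ad-MG. Clec4a1, Clec4a2 and Clec4a3, Clec4b1 and Clec4b2, and the Ms4a4 and Ms4a6 genes are close copies of each other, and the files do not show how far their probes cross-react.

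Receptors for nucleotides, complement and apoptotic cells were called in both directions. Over all genes 5.38% were called higher in ad-MG and 3.58% in bm-Mac. Of 16 measured purinergic genes, 3 were called higher in ad-MG and 2 in bm-Mac: P2ry13, P2ry12 and the ectonucleotidase Nt5e (1.38) on one side, and P2ry1 (-2.39) and P2rx1 (-2.24), ATP and ADP receptors known from platelets, on the other. P2ry6, P2rx7 and P2rx4 differed by -0.49 to -0.13 and did not pass. Of 21 measured complement genes, 3 were called higher in ad-MG and 4 in bm-Mac. The ad-MG side held Serping1 (3.13), the C1 inhibitor, C1s1 (2.76), the protease of the C1 complex, and C1qa (1.80), a chain of C1q. C1qa was at 13.32, 13.22 and 13.24 against 11.50, 11.43 and 11.45, whereas C1qb and C1qc, which form the same molecule, differed by 0.44 and 0.50. The bm-Mac side held Vsig4 (-3.32), a receptor for C3 fragments, Cfb (-2.40), Cd55 (-2.14) and Cfp (-1.66). Of 28 measured phagocytic receptors, Colec12, Pros1 (1.22) and Itgb5 (1.06) were higher in ad-MG and Cd36, Scarf1 (-1.53), Cd163 (-1.44) and Mfge8 (-1.18) in bm-Mac. Trem2, a lipid receptor of microglia, lay at 13.21 to 13.25 against 12.72 to 12.86 (0.45, under 2-fold), and the clearance receptor Mertk differed by -0.05.

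The lists of lipid and iron genes differed in direction, and most members did not pass. Over all genes 5.38% were called higher in ad-MG and 3.58% in bm-Mac. Of 23 measured genes of lipid efflux and storage, 7 were called higher in bm-Mac and 1 in ad-MG. Pparg, a nuclear receptor for fatty acids, was at 9.45, 9.33 and 9.29 in ad-MG against 11.85, 11.92 and 12.02 (-2.57 ± 0.10, adjusted p = 2.03e-17). The sterol exporter Abcg1 (-2.45), the oxysterol receptor gene Nr1h3, which encodes LXR alpha (-2.41), the fatty acid chaperone Fabp4 (-1.98), the lipase Lpl (-1.82) and the droplet coat protein Plin2 (-1.42) were also lower in ad-MG. Abca1 and Apoe did not pass, at -0.09 and 0.32. In the cholesterol and fatty acid synthesis list 2 of 26 measured genes passed, a share near the 8.95% called over all genes. They were the desaturases Scd1 (2.93) and Scd2 (1.09), and the median was 0.51. Scd2 fell to 0.98 without ad-MG replicate 3. In the lipid-associated microglia list Cst7 (2.77), a cathepsin inhibitor, and Csf1 (2.10) were higher in ad-MG, Lpl and Ccl6 (-1.69) in bm-Mac, and the other 20 did not pass. Of 21 measured iron genes, 5 were called higher in bm-Mac: the transferrin receptor Tfrc (-3.12), haptoglobin Hp (-2.53), the exporter Slc40a1 (-2.21), Cd163 and the siderophore-binding Lcn2 (-1.43). Steap4, a metalloreductase, was higher in ad-MG (1.08), and ferritin Fth1 differed by 0.11.

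Secreted signals went both ways, where 5.38% of all genes were called higher in ad-MG and 3.58% in bm-Mac. Of 32 measured cytokine and growth factor genes, 8 were called higher in ad-MG and 3 in bm-Mac. Ptgs2, the inducible cyclooxygenase, was at 12.12, 12.19 and 12.30 against 8.81, 8.74 and 8.76 (3.44 ± 0.17, adjusted p = 3.51e-15). Tgfb3 (2.73), Tgfb2 (2.61), Csf1, Il6 (2.08), Il1a (2.01), Pdgfa (1.21) and Pdgfb (1.05) followed, while the interleukin 1 antagonist Il1rn (-2.12), Il10 (-1.53) and Hgf (-1.41) were higher in bm-Mac. Tnf and Il1b did not pass, at 0.84 and -0.54. Of 27 measured chemokines, 6 were called higher in ad-MG and 7 in bm-Mac. Ccl12, a ligand of CCR2, was at 11.92, 11.84 and 12.17 in ad-MG against 8.11, 8.03 and 7.82 (3.99 ± 0.13, adjusted p = 5.13e-19). On the other side Ccl5 (-3.26) was at 9.60 to 9.65 in ad-MG against 12.82 to 12.99, and the platelet chemokine Ppbp differed most. Among 20 measured chemoattractant receptors, Cx3cr1 and Gpr183 (1.17) were higher in ad-MG and Ccr2, Ccr3 (-4.37) and Cxcr2 (-3.60) in bm-Mac. Of 11 measured genes of colony stimulating factors and their receptors, Csf1 was higher in ad-MG and Kit (-1.25) and Csf2rb2 (-1.27) in bm-Mac. With the arrays centred on their medians the number higher in bm-Mac was 4 in place of 2.

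More genes of the TGF-beta and BMP pathways were called higher in ad-MG than in bm-Mac. TGF-beta signals through TGFBR1 and SMAD proteins and is needed for the microglial state. Of 34 measured members, 10 were called higher in ad-MG and 2 in bm-Mac, against 5.38% and 3.58% of all genes. The other 22 did not pass, and the median was 0.62. The list averaged 10.04 to 10.11 in ad-MG, 9.76 to 9.79 in p-Mac, 9.26 to 9.27 in neo-MG and 9.22 to 9.27 in bm-Mac. The neo-MG arrays thus lay near bm-Mac and not near ad-MG. Among ligands, Bmp4 was at 12.07, 11.75 and 12.25 in ad-MG against 7.44, 7.60 and 7.39 (4.55 ± 0.11, adjusted p = 7.7e-22), followed by Tgfb3, Tgfb2 and Bmp6 (1.93), while Bmp2 (-1.49) was lower and Tgfb1 differed by -0.32. Among receptors Bmpr1a (2.50) passed and Tgfbr1 (0.94) did not. Among targets and feedback regulators Id3 (2.58), Smad7 (1.67), Id1 (1.25) and Skil (1.06) were higher. Nrros, which presents latent TGF-beta 1 on microglia, was lower in ad-MG, at 9.73 to 10.09 against 11.11 to 11.18 (-1.20 ± 0.08, adjusted p = 2.71e-12). Bmp4, Tgfb3 and Ltbp2 (2.38) had means of 7.36 to 8.47 in neo-MG, p-Mac and bm-Mac. The fibroblast list above was high in the same ad-MG arrays, and a link between them was not tested.

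Matrix proteases and adhesion genes included members with some of the largest differences in both directions. Over all genes 5.38% were called higher in ad-MG and 3.58% in bm-Mac. Of 29 measured proteases and inhibitors, 13 were called higher in ad-MG and 5 in bm-Mac. Mmp2 (4.28), a gelatinase, and Timp1 (3.04), a metalloprotease inhibitor, led the first group, and Mmp9 (-5.55) and the neutrophil collagenase Mmp8 (-3.86) the second. Of 34 measured integrin and adhesion genes, 9 were called higher in ad-MG and 8 in bm-Mac. Itga8 (3.33), which pairs with integrin beta 1 on mesenchymal cells, and Jam2 (3.09), a junction protein, were highest in ad-MG. Itgb8 (2.22), whose product activates latent TGF-beta, was called as well. Itga2b (-2.50), the platelet integrin, Vcam1 (-1.97), and Itga4 (-1.60), a chain of the VCAM1 receptor, were highest in bm-Mac.

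Of 39 measured factors of the myeloid transcription factor list, 6 were called higher in ad-MG and 3 in bm-Mac, where 5.38% and 3.58% of all genes were, and the median was -0.03. Id3, Bhlhe41 (2.00), Egr1 (1.49), Id1, Sall1 and Sall3 (1.06) were higher in ad-MG, and Pparg, Nr1h3 and Irf4 (-1.32) in bm-Mac. Spi1, Irf8, Runx1, Mef2a, Mef2c, Cebpa and Maf lay between -0.41 and 0.51 and did not pass. Of 29 measured immediate early genes, 7 were called higher in ad-MG and none in bm-Mac (median 0.45), among them Socs3 (2.02) and Fosb (2.00), while Fos (0.53) and Jun (0.98) did not pass. The second probeset of Socs3 differed by -0.04 and the mean of both by 0.99. Egr2 was the lowest member at -0.92 and passed in favour of bm-Mac without ad-MG replicate 1 (-1.05). Of 30 measured Hox genes, Hoxb4 alone was called, in favour of bm-Mac (-1.09).

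Of 34 measured cell cycle genes, 5 were called higher in bm-Mac and 1 in ad-MG, where 3.58% and 5.38% of all genes were. The 5 were the replication helicase genes Mcm5, Mcm6 and Mcm7 (-1.08, -1.02 and -1.27), Kif11 (-1.22) and Racgap1 (-1.08), and the other was Ccnd2 (1.48). The median was -0.55. The count of 5 was 2 without ad-MG replicate 2 and 7 without ad-MG replicate 3. The list averaged 9.63 to 10.02 in ad-MG, 10.36 to 10.37 in bm-Mac and 8.11 to 8.13 in p-Mac. Of 33 measured cathepsin and lysosome genes, Ctsf alone was called (1.48), and the median was -0.02. Of 33 measured respiratory chain genes, Ndufa1 (2.08), Ndufa2 (1.20) and Ndufa5 (1.11), which encode subunits of complex I, were called higher in ad-MG and none in bm-Mac, a share near the 8.95% called over all genes. The median was 0.32. Of 31 measured glycolysis and hypoxia genes, 5 were called higher in ad-MG and 1 in bm-Mac, against 5.38% and 3.58% of all genes. Adm (2.69), Egln3 (2.20), Bnip3 (2.13), P4ha2 (2.06) and P4ha1 (1.17) were higher in ad-MG and the glucose transporter Slc2a3 (-2.53) in bm-Mac, whereas Slc2a1, Vegfa, Ldha and Gapdh differed by -0.04 to 0.03. Of 22 measured ion channel genes, the calcium-activated potassium channel Kcnn4 (-4.18) and the connexin Gja1 were called. This share is also near the 8.95% called over all genes. The sex-linked genes did not separate ad-MG from bm-Mac: Xist lay at 13.14 to 13.22 in ad-MG and 13.18 to 13.27 in bm-Mac, and Eif2s3y, Kdm5d and Uty lay at 4.76 to 6.67 in both. They did differ from the groups quoted beside them. The sex-linked list averaged 7.40 to 7.56 in ad-MG, 10.36 to 10.39 in neo-MG and 9.46 to 9.60 in DC. For ad-MG against neo-MG, 1 of the 4 measured genes was called higher and 3 lower, against 4.43% and 1.28% of all genes.

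**Figure D5:**
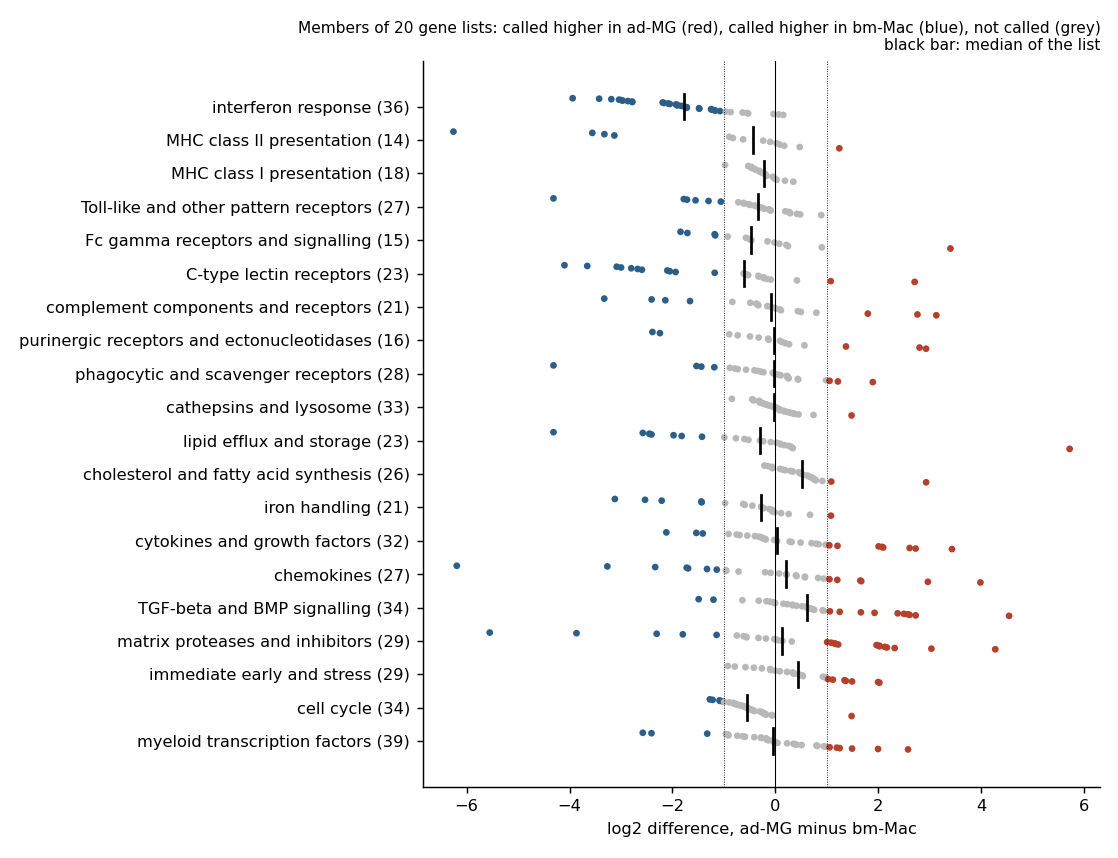
Log2 difference, ad-MG minus bm-Mac (horizontal axis), of each measured member of 20 gene lists (rows, with the number of members); red points are called higher in ad-MG, blue points higher in bm-Mac and grey points are not called, and the black bar is the median of the list. The interferon list has its median at -1.76 and no red point, and the TGF-beta and BMP list its median at 0.62.

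Of 303 measured microRNA genes, 19 were called, or 6.27% against 8.95% of all genes, 9 higher in ad-MG and 10 higher in bm-Mac. A probeset of a microRNA gene on this array measures the hairpin and its host transcript in total RNA, and which mature strand was present was not measured. Mature sequences of 16 of the 19 genes were taken from RefSeq (GRCm38.p6), and the others are not given here. Among the called genes 2 pairs share a seed, the bases 2 to 8 with which a microRNA finds its targets, and both pairs are higher in bm-Mac. They are shown with the seed in capitals, 5′ to 3′, together with both strands of Mir142, a microRNA of blood cells, and of Mir34a, a target of p53 that was higher in ad-MG. These genes were chosen after their values were seen.

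miR-221-3p: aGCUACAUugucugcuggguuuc

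miR-222-3p: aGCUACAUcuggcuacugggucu

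miR-15a-5p: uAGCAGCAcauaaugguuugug

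miR-16-5p: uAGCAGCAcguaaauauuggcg

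miR-142a-5p: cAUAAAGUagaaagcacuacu

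miR-142a-3p: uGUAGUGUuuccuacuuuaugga

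miR-34a-5p: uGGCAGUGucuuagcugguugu

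miR-34a-3p: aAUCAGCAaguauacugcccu

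The genes Mir221 and Mir222 neighbour each other on chromosome X (mature strands at chrX:19146307-19146329 and chrX:19146901-19146923), and Mir15a and Mir16-1 on chromosome 14 (chr14:61632075-61632096 and chr14:61631936-61631957), so neither pair is made of independent measurements. Mir222 was at 7.02, 6.83 and 6.97 in ad-MG and at 8.88, 8.68 and 9.01 in bm-Mac (-1.92 ± 0.10, adjusted p = 2.15e-14), and Mir221 differed by -1.63 ± 0.13. The means of both in neo-MG, 6.73 and 7.22, were near those of ad-MG. Mir15a was at 9.58, 9.54 and 9.47 against 10.50, 10.87 and 10.98 (-1.25 ± 0.09, adjusted p = 1.59e-11), and Mir16-1 differed by -1.08 ± 0.12. Mir142 was lower in ad-MG by the same measure (-1.28 ± 0.11), at 8.66 to 8.96 against 9.93 to 10.14, and its neo-MG mean of 9.80 was close to bm-Mac. On the other side Mir34a was at 8.41, 8.47 and 8.78 against 6.70, 6.77 and 6.81 (1.79 ± 0.11, adjusted p = 2.75e-13). The largest differences were in Mir145a (3.00), a microRNA of smooth muscle cells whose sequence is not shown, and in Mir675 (2.49), which lies in the transcript of the imprinted gene H19. Mir145a was at 5.50 to 5.75 on average in neo-MG, p-Mac and DC. The mural list was high in the same ad-MG arrays, and a link between them was not tested. Meg3, an imprinted long noncoding RNA, was also higher in ad-MG (1.54) and was chosen in the same way.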

How the data were processed

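RNA from 24 samples of 8 cell types was hybridised to Affymetrix arrays. The deposited values are log2 signals that the authors summarised by RMA, per the submitters' processing notes, which also name Partek; the log base is read from the range of the values. RMA puts the arrays on a common scale, so a difference is relative to the array as a whole. The deposited distributions were not equal, since the median of all probesets ran from 7.96 to 8.21 over the 24 arrays. Of 35556 probesets, 21218 name 1 gene, 1881 several and 12457 none. Each of 18820 genes was represented by its brightest single-gene probeset, judged on the 24 arrays together.

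limma 3.58.1 in R 4.3.3 was fitted to all 24 arrays with a mean for each cell type and moderated variances, with Benjamini-Hochberg adjustment over all genes, and was checked on simulated data. Values after ± are standard errors of that fit. Genes were named by a rule: the 12 most different protein-coding genes each way, the 2 highest and 2 lowest members of each of 53 lists, and a fixed marker set. The 12 each way were taken from called genes whose ad-MG and bm-Mac arrays do not overlap. Further list members were named after their values were seen. Members and lists were chosen with earlier results of these data known. Levels of different genes are not comparable, since probes differ.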

Additional observations from a re-analysis of the deposited data

How the results depend on the processing

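None of the 218 genes named by the rule changed sign while called in the alternatives run. Dropping the 2-fold minimum raised the calls from 1685 to 10794 and turned the split, to 4323 higher in ad-MG and 6471 in bm-Mac. Leaving out each of the 6 arrays in turn gave 1662 to 1725 calls, 977 to 1028 higher in ad-MG and 634 to 704 higher in bm-Mac. Fitting the 6 arrays alone, adding the replicate block and letting the variance follow the mean each gave 1685 calls, since the 2-fold minimum decides them. Deviations of same-numbered arrays from their group means correlated at -0.107, 0.0246 and -0.226. Deviations from a mean of 3 arrays depend on each other, so these values cannot settle whether the replicate numbers pair the samples. Centring the arrays gave 1685 calls with 921 higher in ad-MG and moved the median of all genes to -0.16; a second quantile normalization gave 1669 calls, the mean of all probesets 1670, and leaving out the dimmest genes 1487 of 14115. That last setting drops Prl, and leaves 6 of the 11 mast cell and basophil genes. The B cell gene Cd79b lay at -1.06, and fell short of 2-fold without ad-MG replicate 2 or bm-Mac replicate 1. List medians within 0.1 of 0 changed sign with the scaling and give no direction. With no scanner signals or background calls, the lower values are bounds on neither presence nor absence.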

Other observations

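The remaining gene lists are read against the 5.38% of all genes called higher in ad-MG and the 3.58% called higher in bm-Mac. Of 23 measured genes of the oxidative burst and nitric oxide list, 5 were called higher in ad-MG and none in bm-Mac: the oxidase Nox4 (2.25, log2 difference), the quinone reductase Nqo1 (1.69), the secreted peroxidase Gpx3 (1.43), the cystine transporter Slc7a11 (1.10) and the extracellular superoxide dismutase Sod3 (1.06). Of 18 measured alternative activation genes, 5 were higher in bm-Mac, among them Chil3 (-6.17), the lectin Mgl2 (-2.67) and the lipoxygenase Alox15 (-2.11), and Socs3 (2.02) was higher in ad-MG, while Arg1, the arginase gene, differed by -0.50 and did not pass. The second probeset of Socs3 differed by only -0.04.

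Of 22 measured dendritic cell genes, 5 were higher in bm-Mac, including Clec9a (-3.08), a receptor of cross-presenting dendritic cells, and 2 in ad-MG, Fscn1 (2.16), an actin bundler, and Socs2 (1.82). A second probeset of Socs2 differed by 0.915, under 2-fold. Of 15 measured genes of haematopoietic progenitors, Myb (-2.37), Gata2 (-1.94), Kit (-1.25) and Meis1 (-1.18) were higher in bm-Mac and Cd34 (1.75), also a gene of vessel and connective tissue cells, in ad-MG. Of 19 measured T and NK cell genes, Il7r (-3.36), Cd4 (-2.62), Nkg7 (-2.26) and Gzmb (-1.44) were higher in bm-Mac and Thy1 (2.73), which fibroblasts also carry, in ad-MG. The other 14 of these genes did not pass. Of 14 measured Ms4a genes, 4 were higher in bm-Mac and none in ad-MG.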
